A study of Mus musculus with 6 samples.

Results

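The genes described here encode the subunits of the mitochondrial respiratory chain and of ATP synthase that are transcribed in the nucleus. They were chosen by symbol: the Nduf genes of complex I, the Uqcr genes with Cyc1 of complex III, the Cox genes of complex IV, the Atp5 genes of ATP synthase (complex V), and Cycs, the soluble carrier cytochrome c. The choice gave 85 rows of 21899 listed genes, after 1 row marked as a pseudogene by its listed symbol was dropped. Complex I had 37 rows, complex III with cytochrome c 10, complex IV 20 and complex V 18. The 85 rows carry 84 symbols, since Atp5o was listed under 2 identifiers. Ndufa4 was counted with complex IV, where its protein works, and not with complex I as its name has it. Ndufab1 and Atpif1 fall outside the symbols used.

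The cells were primary induced regulatory T cells (iTregs) from mouse spleen, measured by bulk mRNA sequencing in 6 libraries. The 3 KO libraries came from Dlst-Treg iKO mice, in which Dlst, a core subunit gene of the 2-oxoglutarate dehydrogenase complex of the TCA cycle, can be deleted in Treg cells. The 3 WT libraries came from iWT mice. CD4+ T cells of both groups were driven towards the Treg fate for 2 days with 4-hydroxytamoxifen present, and cells carrying CD4, the FoxP3-GFP reporter and tdTomato were then sorted, so the drug and the reporters are shared by KO and WT. The labels do not name the recombinase or the promoter that drives it, the age or sex of the mice, or whether the replicates came from separate animals or cultures. The p-values therefore measure the spread between these libraries, which may in part be technical. In bulk RNA a smaller number of expressing cells and less RNA per cell cannot be told apart.

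As background, complex I takes electrons from NADH and complex II from succinate, both pass them to coenzyme Q, complex III passes them on to cytochrome c, and complex IV to oxygen. Complexes I, III and IV pump protons as they do so, and ATP synthase lets the protons back through its ring of c subunits to make ATP. A few core subunits come from mitochondrial DNA, while all the others are made from nuclear genes and imported. Regulatory T cells are known to depend on respiration more than most activated effector T cells do. The 2-oxoglutarate dehydrogenase step feeds this chain with NADH and with succinyl-CoA, from which succinate is made.

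The libraries held from 33590510 to 49772670 estimated counts in KO and from 35647816 to 47526481 in WT. Dlst itself stood at 125, 129 and 129 CPM (estimated counts scaled by library total and TMM factor) in KO and at 161, 149 and 149 CPM in WT. The KO values were all below the WT values, with a log2 fold change of -0.26 (SE 0.05), and the adjusted p of edgeR's quasi-likelihood test was 0.0894, so the targeted gene missed the threshold of 0.05. It passed in 2 of 17 alternatives, DESeq2 (0.00129) and the fit without both first replicates (0.0323). Summed T cell and Treg markers, Foxp3 among them, were at 3521, 3923 and 3829 CPM in KO against 3527, 4048 and 3894 CPM in WT. Il2ra was the largest part of that sum, at 1827, 2241 and 2160 CPM in KO and 1923, 2362 and 2317 CPM in WT. Of these 8 markers Ikzf2 was called lower in KO and none was at 0 in every library. Foxp3 lay above WT without overlap, at 231, 207 and 227 CPM in KO and 154, 202 and 198 CPM in WT. Trac did so too, at 416, 441 and 421 CPM in KO and 290, 360 and 263 CPM in WT. Neither was called. Ikzf2, Cd4 and Cd3d lay below WT without overlap, while Il2ra, Ctla4 and Cd3e overlapped. RNA of other cell types differed between the groups: 8 neutrophil markers summed to 294, 72.8 and 71.3 CPM in KO against 30.8, 7.27 and 4.61 CPM in WT, and 9 monocyte and macrophage markers to 351, 90.9 and 102 CPM in KO against 27.8, 20.7 and 19.4 CPM in WT. By edgeR 0 of 7 tested neutrophil markers and 2 of 7 tested monocyte and macrophage markers (C3ar1 and Mrc1) were called higher. B cell markers summed to 29.8, 28.2 and 28.7 CPM in KO against 91.4, 29.1 and 14.0 CPM in WT, and CD8 and NK cell markers to 106, 88.9 and 92.6 CPM in KO against 66.2, 84.8 and 48.5 CPM in WT. Cd8a was the largest part of the CD8 and NK sum, at 70.4, 61.5 and 63.7 CPM in KO and 44.2, 55.8 and 28.8 CPM in WT. Cd8a and Cd8b1 lay above WT without overlap. Gzma, Ncr1 and Klrd1 overlapped, with Klrd1 at 4.55, 2.03 and 2.81 CPM in KO and 2.11, 7.12 and 5.45 CPM in WT. KO replicate 1 stood apart by its neutrophil and monocyte markers, and WT replicate 1 by its B cell markers and by the subunit genes themselves, as described with those results. The part of these traces in the results on subunit genes was not tested.

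The subunit mRNAs were among the abundant transcripts of these cells. In TPM (a level scaled to gene length and library), the 85 rows summed to 17658 ± 268 in KO and 18145 ± 764 in WT (SD, n = 3 each), or 1.77% of all TPM in KO and 1.81% in WT. The median level of the 78 rows with enough counts for a test was 179 TPM, against 19.4 TPM over all 12768 genes tested. By complex the median was 121 TPM in complex I, 180 TPM in complex III with cytochrome c, 340 TPM in complex IV and 343 TPM in ATP synthase.

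The catalytic beta subunit of ATP synthase, Atp5b, had the highest level of any member, with 930, 1055 and 1015 TPM in KO and 1112, 1028 and 1075 TPM in WT. Its partner in the catalytic head, Atp5a1, was next, with 552, 583 and 578 TPM in KO and 626, 553 and 588 TPM in WT. Cox4i1, the regulatory subunit 4 of complex IV, averaged 531 TPM over the 6 libraries and Uqcrh, the hinge protein of complex III, 487 TPM. Cycs stood lower, at 17.6, 22.7 and 21.5 TPM in KO and 20.01, 20.01 and 21.0 TPM in WT. Of the tested members only Cox6b2 and Cox7a1 of complex IV were below it, with means of 6.58 and 2.48 TPM. The KO and WT values of Atp5b, Atp5a1 and Cycs overlapped. The 36 tested rows of complex I lay between 58.2 TPM for Ndufb4 and 222 TPM for Ndufa3.

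**Figure D1:**
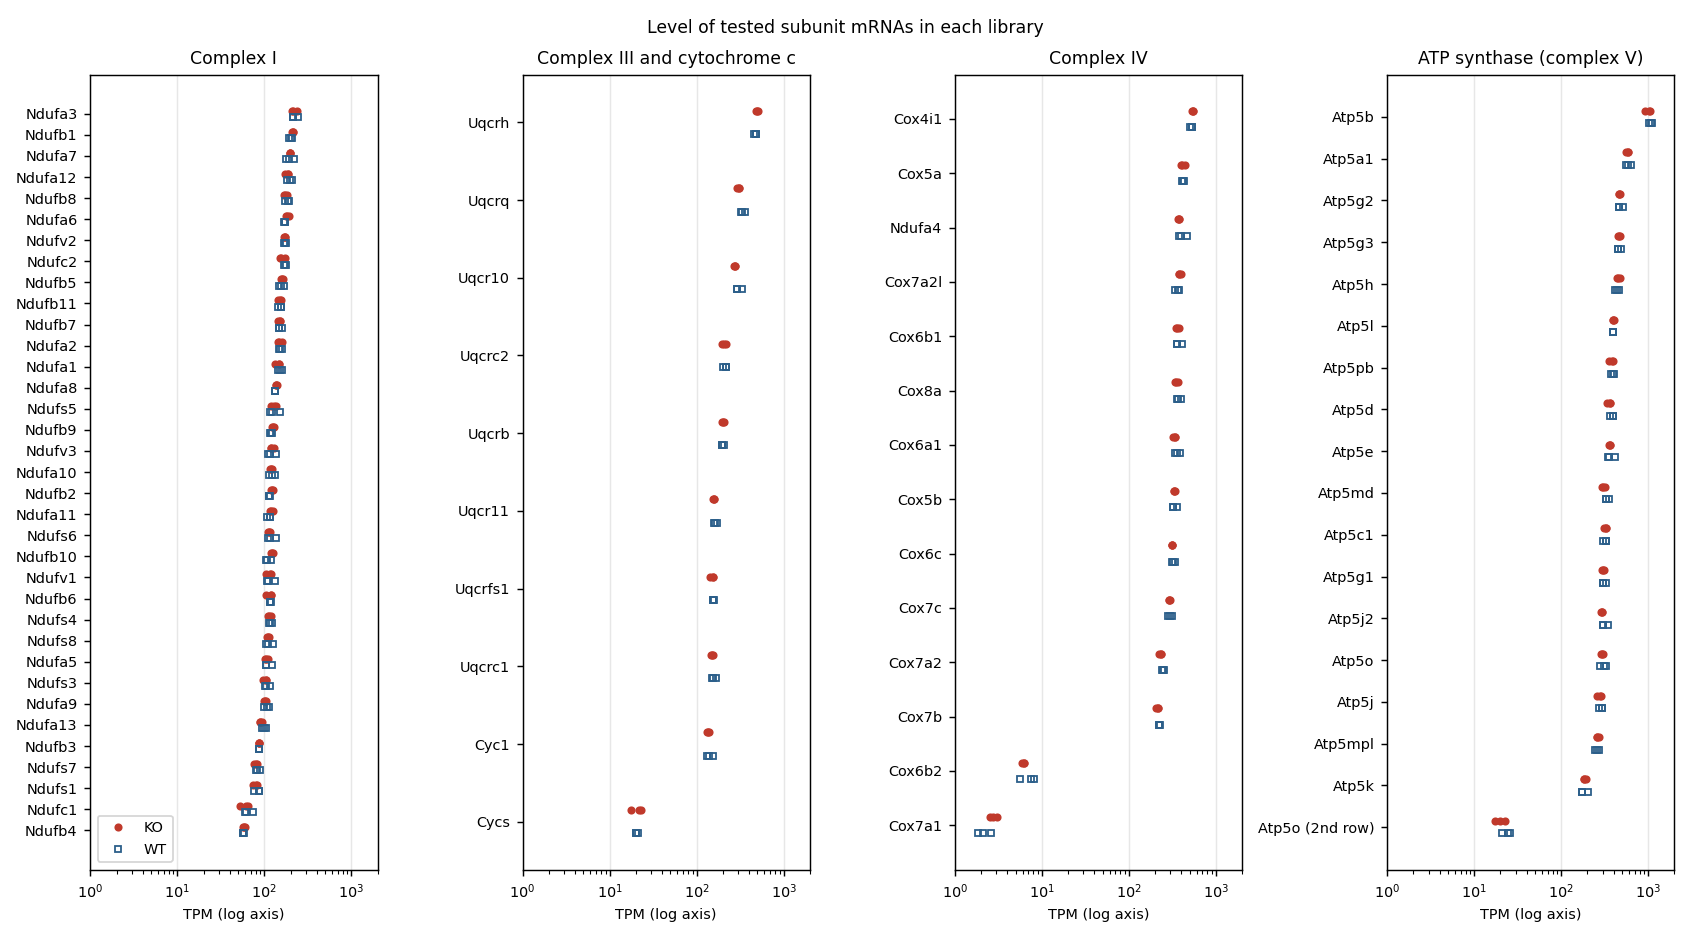
Level of 77 of the 78 tested subunit mRNAs in TPM on a log axis, with 1 panel for each complex and members ordered by mean level. Filled circles are the 3 KO libraries and open squares the 3 WT libraries; Cox6b2 and Cox7a1 lie far below the other complex IV genes, and KO and WT points of most members lie on each other.

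Several complex IV subunits exist as a form found in most tissues and a form known from heart, skeletal muscle, lung or testis. In these cells the forms of wide use carried nearly all of the mRNA. The 12 widely used complex IV genes summed to 4134 ± 51.8 TPM in KO and 4249 ± 161 TPM in WT, while the 8 tissue forms summed to 9.38 ± 0.54 TPM in KO and 10.0 ± 1.27 TPM in WT (SD, n = 3 each). Of the 8 tissue forms, 2 (Cox6b2 and Cox7a1) had enough counts for a test.

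For subunit 6b, Cox6b1 stood at 358, 372 and 351 TPM in KO and 405, 355 and 360 TPM in WT. Its testis form Cox6b2 stood at 6.19, 6.17 and 5.86 TPM in KO and 5.53, 8.18 and 7.55 TPM in WT, from 55 to 105 reads in a library. The KO and WT values of both genes overlapped. For subunit 7a, the widely used Cox7a2 had 231, 235 and 224 TPM in KO and 251, 243 and 246 TPM in WT. Cox7a2l, which helps complexes III and IV to join into a supercomplex, had 393, 379 and 381 TPM in KO and 335, 373 and 371 TPM in WT. The heart and muscle form Cox7a1 had 3.02, 2.77 and 2.55 TPM in KO and 2.10, 1.86 and 2.60 TPM in WT. On these TPM values Cox7a2 lay lower in every KO library and Cox7a2l higher, while the Cox7a1 values overlapped.

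For subunit 8, Cox8a had 342, 349 and 363 TPM in KO and 395, 362 and 361 TPM in WT, whereas the muscle form Cox8b and the testis form Cox8c had 0 reads in every library. Cox7b2 and Ndufb11b were also at 0 in all 6 libraries. A count of 0 allows up to 3 counts, or 0.0599 to 0.0896 CPM in the KO libraries and 0.0639 to 0.0833 CPM in the WT libraries, counting error only. Thus 4 members had no read in either group. For subunit 6a, Cox6a1 had 321, 339 and 337 TPM in KO and 391, 334 and 354 TPM in WT, and the heart and muscle form Cox6a2 had 8, 4 and 6 reads in KO and 9, 11 and 3 reads in WT. For subunit 4, Cox4i1 had 539, 538 and 532 TPM in KO and 533, 510 and 534 TPM in WT, and the lung form Cox4i2 had 4, 2 and 0 reads in KO and 2, 3 and 6 reads in WT. The KO and WT values of all 4 of these genes overlapped. Ndufa4, the last subunit to be placed in complex IV, had 370, 373 and 378 TPM in KO and 460, 379 and 396 TPM in WT, and its hypoxia-linked relative Ndufa4l2 had 3, 0 and 1 reads in KO and 3, 1 and 2 reads in WT. Thus the 6 tissue forms that could not be tested had at most 11 reads in any library. Summed over 6 markers of heart and skeletal muscle, the libraries had 1.98, 1.76 and 1.62 CPM in KO against 20.8, 14.0 and 20.3 CPM in WT, with 2 of 4 tested markers, the heart myosin heavy chains Myh6 and Myh7, called lower in KO. Myh7 alone had 0.0599, 0.0299 and 0.0257 CPM in KO against 14.6, 9.67 and 14.5 CPM in WT, so it carried most of the WT sum. Tnnt2 was also lower in every KO library, at 0.639, 0.777 and 0.463 CPM in KO and 1.19, 1.17 and 1.46 CPM in WT. Its log2 fold change was -1.03, and it was not called (edgeR adjusted p = 0.157). The KO and WT values of Acta1 and Ckm overlapped, and Actc1 was at 0.0399, 0 and 0 CPM in KO against 0 CPM in every WT library. The part of muscle RNA in the values of the tissue forms was not tested.

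**Figure D2:**
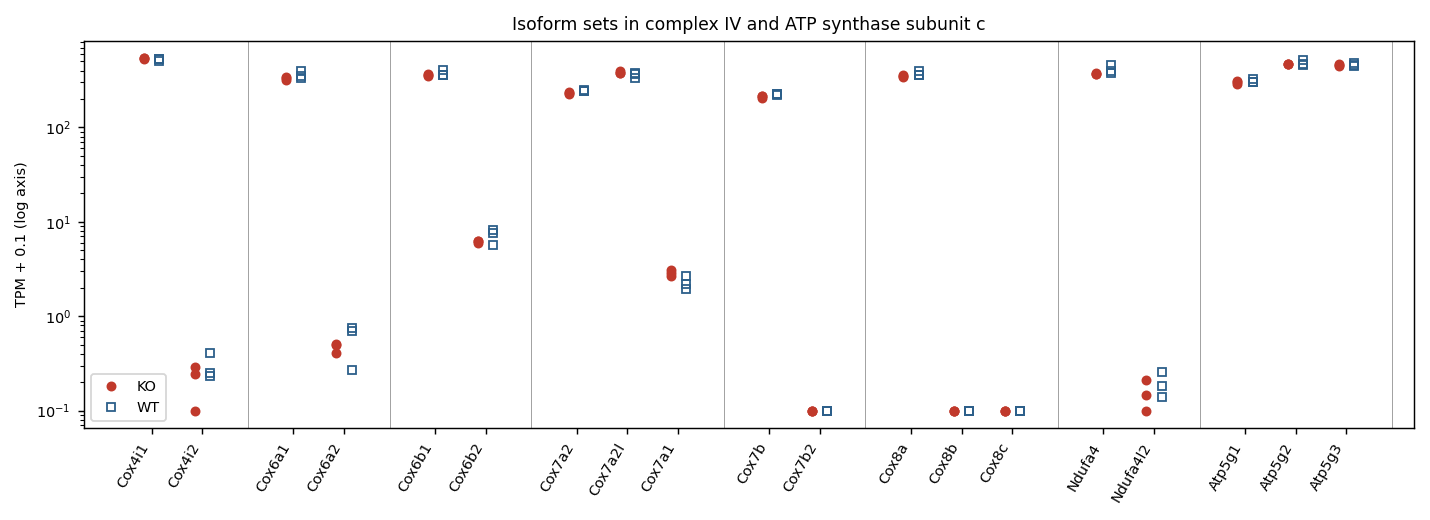
Level in TPM plus 0.1, on a log axis, of the complex IV isoform sets and of the 3 genes of ATP synthase subunit c, with vertical lines between the sets. Filled circles are the 3 KO libraries and open squares the 3 WT libraries; genes with 0 reads sit at 0.1, and Cox6b2 and Cox7a1 are the tissue forms that stand clear of it.

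The sequence before the gene start was compared for 2 pairs of forms. Cox6b1 with Cox6b2 and Cox7b with Cox7b2 also had promoters in the table and are not shown. The 2 pairs therefore need not stand for the other sets. Shown are the 250 bases upstream of the RefSeq start (GRCm38.p6, minus or plus strand as given, 5′ to 3′ along the gene) of both members of 2 pairs, with every CG pair of bases in capitals, since promoters of genes used in all tissues are known to be rich in CG pairs. Cox7a2 (chr9:79759854-79760103, minus strand) holds 14 CG pairs and Cox7a1 (chr7:30183921-30184170, plus strand) holds 4. Cox8a (chr19:7217617-7217866, minus strand) holds 11 and Cox8b (chr7:140900447-140900696, minus strand) holds 1. The median was 14 CG pairs over the 65 tested members with a promoter in the table, 17 over 9984 tested genes and 6 over all 27025 promoters. Over the 2 untested members with a promoter, Cox8b and Cox7b2, it was 5. These counts describe the letters only.

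Cox7a2: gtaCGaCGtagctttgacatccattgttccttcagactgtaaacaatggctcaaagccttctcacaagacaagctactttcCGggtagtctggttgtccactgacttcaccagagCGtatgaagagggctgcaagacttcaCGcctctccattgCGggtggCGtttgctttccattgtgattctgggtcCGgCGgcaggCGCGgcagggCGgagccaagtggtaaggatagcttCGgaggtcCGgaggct

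Cox7a1: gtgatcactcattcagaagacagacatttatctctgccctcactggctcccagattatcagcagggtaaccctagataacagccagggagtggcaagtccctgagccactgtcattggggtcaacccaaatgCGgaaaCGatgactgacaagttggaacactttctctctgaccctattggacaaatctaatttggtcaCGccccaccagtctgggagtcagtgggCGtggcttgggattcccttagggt

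Cox8a: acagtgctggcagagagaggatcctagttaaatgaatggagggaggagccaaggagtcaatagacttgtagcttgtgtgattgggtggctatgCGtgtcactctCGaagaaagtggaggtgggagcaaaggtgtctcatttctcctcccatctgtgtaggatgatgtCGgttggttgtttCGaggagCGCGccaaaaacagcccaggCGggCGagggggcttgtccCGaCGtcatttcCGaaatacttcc

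Cox8b: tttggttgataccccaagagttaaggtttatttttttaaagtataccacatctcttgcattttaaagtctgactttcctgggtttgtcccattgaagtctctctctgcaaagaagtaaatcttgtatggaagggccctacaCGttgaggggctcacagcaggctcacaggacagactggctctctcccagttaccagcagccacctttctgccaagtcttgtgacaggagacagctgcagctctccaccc

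ATP synthase subunit c, the ring that turns as protons pass, is encoded by 3 genes whose mature proteins are known to be identical. All 3 were well expressed: Atp5g2 had 467, 465 and 473 TPM in KO and 512, 459 and 466 TPM in WT. Atp5g3 had 447, 470 and 456 TPM in KO and 486, 451 and 454 TPM in WT. Atp5g1, the form known to vary most with demand, had 292, 311 and 302 TPM in KO and 328, 304 and 302 TPM in WT. In each of the 3 genes WT replicate 1 was the highest library and the groups overlapped. Together they summed to 1228 ± 20.1 TPM in KO and 1254 ± 62.3 TPM in WT (SD, n = 3 each).

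No subunit gene passed the test of KO against WT. With p-values of edgeR's quasi-likelihood test adjusted by the Benjamini-Hochberg method over the 12768 genes tested, 0 of 78 tested members were called higher in KO and 0 were called lower, where 0.454% of all genes tested were called higher and 0.219% lower. The lowest adjusted p among the members was 0.265. At an unadjusted p under 0.05 there were 3 of 78 members, or 3.85%, against 15.1% of all genes tested. By DESeq2 there were 2 members at that level, or 2.56%, against 14.2% of all genes tested. Again 0 members were past the adjusted threshold by DESeq2, where 4.17% of all genes tested were. The 7 members that had too few counts, 6 of them tissue forms of complex IV and 1 Ndufb11b, are not part of these counts.

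The members' fold changes were small, and most had narrow intervals. Like the p-values, these intervals measure the spread between these libraries, which may in part be technical. Their log2 fold changes, KO minus WT, ran from -0.24 to 0.43 with a median of -0.04, against a median of -0.00 over all genes tested. The median standard error was 0.06 for members and 0.09 for all genes. For 75 of 78 members the 95% interval lay within 1.25-fold either way, compared with 49.9% of all genes tested. The other 3 were Cox7a1 (-0.19 to 1.05), Cox6b2 (-0.71 to 0.22) and the second row of Atp5o (-0.56 to 0.08), the 3 members of lowest count among those tested. A change of the size of 1.25-fold therefore lay outside the interval of every other tested member, each interval taken singly.

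By direction, 24 of 78 members were above 0 and 54 below. KO lay above WT without overlap in CPM for 10 of 78 members, where 11.9% of all genes did so, and below WT without overlap for 9 of 78, where 10.9% of all genes did so. The groups of the remaining 59 members overlapped. In complex I 12 members were above 0 and 24 below (median -0.02), in complex III with cytochrome c 4 and 6 (median -0.05), in complex IV 3 and 11 (median -0.04) and in ATP synthase 5 and 13 (median -0.04). Counting Ndufa4 in complex I put that median at -0.03. The excess of members below 0 depended on 1 library: without WT replicate 1 there were 40 above 0 and 38 below, with a median of 0.00.

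**Figure D3:**
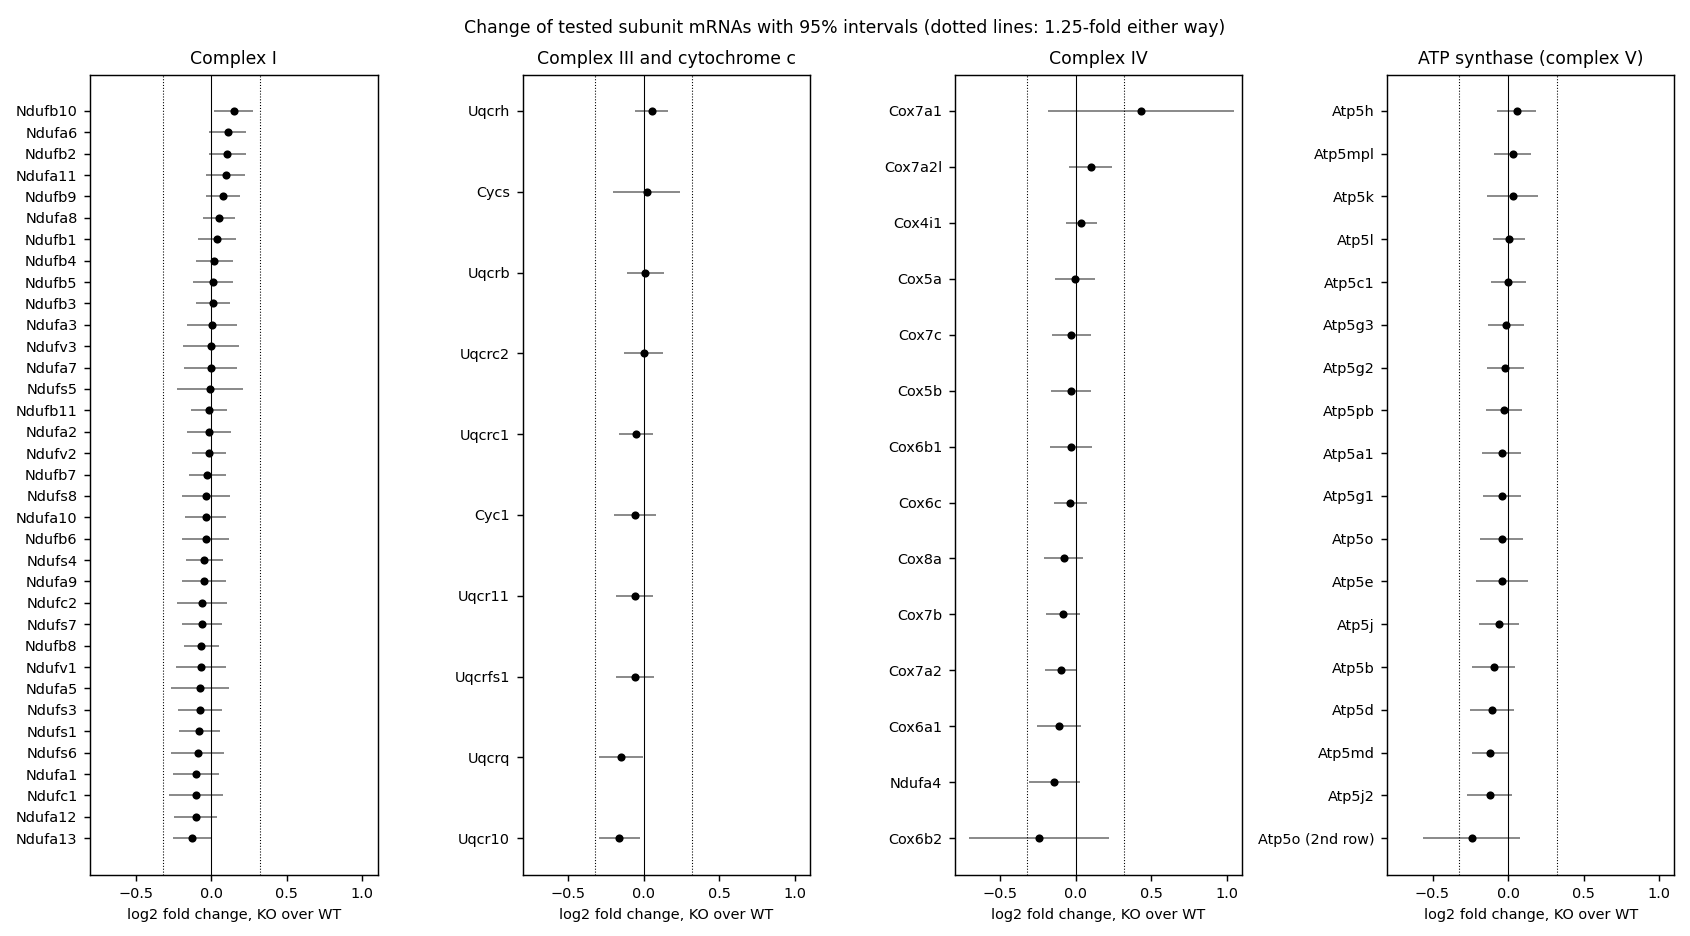
Log2 fold change of KO over WT of 77 of the 78 tested members from edgeR (point) with its 95% interval (line), with 1 panel for each complex; dotted lines mark 1.25-fold in either direction. Every interval but those of Cox7a1, Cox6b2 and the second row of Atp5o lies between the dotted lines.

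Complex I is built of a matrix arm that holds the electron carriers and a membrane arm that pumps. The 7 nuclear core subunits, which bind the flavin and the iron-sulphur clusters, had 1 log2 fold change above 0 and 6 below (median -0.06). All 7 overlapped between the groups. Ndufs1, the largest subunit, was at 95.6, 105 and 103 CPM in KO and 109, 102 and 109 CPM in WT. The 4 accessory Ndufs and Ndufv subunits were all below 0 (median -0.03), the 12 accessory Ndufa subunits 4 above and 8 below (median -0.03), and the 13 tested Ndufb and Ndufc subunits, most of them in the membrane arm, 7 above and 6 below (median 0.01).

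Ndufb10, an accessory subunit of the distal membrane arm, had the lowest p of complex I, with 52.0, 50.9 and 51.4 CPM in KO and 49.4, 44.9 and 45.1 CPM in WT. All KO values lay above all WT values, and the log2 fold change was 0.15 (SE 0.06, edgeR adjusted p = 0.27). Ndufa13, also known as GRIM-19, had 67.1, 64.1 and 64.7 CPM in KO and 74.6, 71.9 and 67.4 CPM in WT, lower in every KO library at -0.13 (SE 0.06, edgeR adjusted p = 0.337). The Ndufa13 row has decimal counts and overlaps another gene on the same strand, so its reads may be shared.

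Ndufa6, an accessory subunit of the matrix arm, had 61.7, 56.7 and 58.3 CPM in KO and 56.0, 54.4 and 53.7 CPM in WT, for a log2 fold change of 0.11 (edgeR adjusted p = 0.377). Ndufb2, of the membrane arm, had 39.1, 41.9 and 41.1 CPM in KO and 37.5, 38.5 and 37.3 CPM in WT, at 0.11 as well (edgeR adjusted p = 0.394). For both genes KO lay above WT without overlap by a few percent. The complex I genes of highest level did not separate the groups: Ndufa3 had 47.8, 43.5 and 42.1 CPM in KO and 47.7, 43.3 and 42.1 CPM in WT, and Ndufb1 had 65.5, 66.8 and 67.5 CPM in KO and 62.0, 68.4 and 64.2 CPM in WT. The Ndufb1 row is named Ndufb1-ps in the GENCODE M21 annotation. It has decimal counts and overlaps Cpsf2 on the other strand, so its reads may be shared. Ndufa11, Ndufa8 and Ndufb9 also lay above WT without overlap and Ndufa1 below, at log2 fold changes of 0.09, 0.05, 0.08 and -0.10.

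In complex III the subunits of the electron path were close to level. Cyc1, which carries the heme that reduces cytochrome c, averaged 105 ± 1.26 CPM in KO and 109 ± 7.37 CPM in WT, and the Rieske iron-sulphur protein gene Uqcrfs1 averaged 118 ± 5.87 CPM in KO and 123 ± 2.25 CPM in WT (SD, n = 3 each). The log2 fold change was -0.06 for each, with overlapping groups. Larger differences stood in small subunits that carry no electrons. Uqcr10, a small membrane subunit, had 66.2, 69.3 and 68.7 CPM in KO and 81.4, 74.0 and 72.8 CPM in WT. Uqcrq, which sits next to cytochrome b, had 72.6, 77.7 and 78.0 CPM in KO and 89.7, 83.9 and 79.4 CPM in WT. Both were lower in every KO library than in any WT library. Their log2 fold changes were -0.16 (SE 0.06) for Uqcr10 and -0.15 (SE 0.06) for Uqcrq, with edgeR adjusted p of 0.265 and 0.318, so neither passed.

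Other members of complex III did not share this. Uqcrh had 158.5, 151.33 and 156.2 CPM in KO and 151.1, 146.4 and 151.32 CPM in WT, without overlap by the narrowest margin and at a log2 fold change of 0.05 (edgeR adjusted p = 0.631). Uqcr11 had 39.3, 41.1 and 40.3 CPM in KO and 43.3, 42.0 and 40.3 CPM in WT, at -0.06 with overlapping groups. The core proteins Uqcrc1 and Uqcrc2, which face the matrix, were at -0.05 and 0.00. Cycs had 31.6, 40.8 and 38.8 CPM in KO and 35.6, 36.5 and 37.3 CPM in WT. The KO values of Cycs lay on both sides of the WT values, with a log2 fold change of 0.02 (SE 0.09, edgeR adjusted p = 0.944) and an interval of -0.20 to 0.24.

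In complex IV the 12 widely used genes had 2 log2 fold changes above 0 and 10 below (median -0.04). Cox7a2 had 87.4, 89.2 and 85.1 CPM in KO and 94.2, 93.4 and 92.4 CPM in WT, and Ndufa4 had 95.7, 96.7 and 98.8 CPM in KO and 119, 99.97 and 102 CPM in WT. Cox7b, an X-linked gene for a small membrane subunit, had 117, 124 and 124 CPM in KO and 130, 129 and 127 CPM in WT. Each of the 3 was lower in all KO libraries, by log2 fold changes of -0.10, -0.14 and -0.08, and none passed (edgeR adjusted p = 0.37, 0.414 and 0.465). Cox6a1 had 105, 112 and 111 CPM in KO and 128, 111 and 115 CPM in WT, at -0.11 with overlapping groups (edgeR adjusted p = 0.457).

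Cox7a2l was among the genes above 0, with 243, 235 and 236 CPM in KO and 206, 234 and 228 CPM in WT, a log2 fold change of 0.10 (SE 0.06, edgeR adjusted p = 0.491). Cox4i1 had 222, 216 and 216 CPM in KO and 212, 213 and 212 CPM in WT, at 0.04 (edgeR adjusted p = 0.733), and Cox5a, which binds a thyroid hormone derivative, had 147, 165 and 152 CPM in KO and 154, 153 and 159 CPM in WT, at -0.00. Cox7a2l and Cox4i1 lay above WT without overlap in CPM, while Cox5a overlapped. Cox6b1 and Cox8a were at -0.03 and -0.08, both with overlap. Of the tissue forms, Cox7a1 had the largest fold change of any member, with 0.699, 0.627 and 0.669 CPM in KO and 0.472, 0.426 and 0.581 CPM in WT, from 35, 21 and 26 reads in KO and 17, 20 and 27 reads in WT. KO lay above WT without overlap in CPM but overlapped it in TPM, and the log2 fold change was 0.43 (SE 0.27, edgeR adjusted p = 0.489). Cox6b2 had 1.68, 1.64 and 1.60 CPM in KO and 1.61, 2.24 and 1.96 CPM in WT, at -0.24 (SE 0.20, edgeR adjusted p = 0.609). The intervals of both tissue forms are wide, and differences within them were not detectable at this depth.

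In ATP synthase, no member lay above WT without overlap, where 11.9% of all genes tested did so. Below WT without overlap lay 2 of 18 members, or 11.1%, close to the 10.9% of all genes tested. The 2 members were Atp5md and Atp5j2, which encode small membrane subunits. Atp5md, known to take part in the pairing of the enzyme into dimers, had 64.8, 66.8 and 69.1 CPM in KO and 75.6, 71.7 and 70.5 CPM in WT. Atp5j2, subunit f, had 92.5, 89.6 and 92.0 CPM in KO and 108, 96.0 and 94.1 CPM in WT. Their log2 fold changes were both -0.12 (edgeR adjusted p = 0.345 and 0.419). Of the 5 genes of the catalytic head and its central stalk, 1 was above 0 and 4 were below. Atp5b had 1023, 1167 and 1122 CPM in KO and 1216, 1150.0 and 1173 CPM in WT, at -0.10 (SE 0.06, edgeR adjusted p = 0.496). Atp5d, the delta subunit of the central stalk, had 172, 187 and 186 CPM in KO and 199, 205 and 183 CPM in WT, at -0.11 (edgeR adjusted p = 0.464), and Atp5a1 had 771, 817 and 811 CPM in KO and 870, 783 and 815 CPM in WT, at -0.04. All of these overlapped between the groups.

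The 3 genes of subunit c were at -0.04 for Atp5g1, -0.02 for Atp5g2 and -0.02 for Atp5g3, with edgeR adjusted p from 0.755 to 0.908. The 10 genes of the stalk and membrane part had 4 log2 fold changes above 0 and 6 below (median -0.04). Atp5o, the stalk subunit that links head and membrane parts, was listed under 2 identifiers. The row on chr16:91925214-91931687 (GRCm38, minus strand) was at 112 ± 1.75 CPM in KO and 116 ± 8.20 CPM in WT (SD, n = 3 each). The second row, a long model on chr16:91684398-91926982 (GRCm38, minus strand) that overlaps Donson, Cryzl1, Itsn1 and the first row, had 5.27, 6.06 and 6.92 CPM in KO and 7.72, 6.48 and 7.38 CPM in WT. Its log2 fold change was -0.24 (SE 0.14, edgeR adjusted p = 0.454). The 2 rows can share reads, so the split between them is uncertain.

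WT replicate 1 stood out for these genes. It was the highest of the 6 libraries for 48 of 78 members, or 61.5%, against 24.6% of all genes tested. This held in each complex: 21 of 36 members of complex I, 6 of 10 of complex III with cytochrome c, 9 of 14 of complex IV and 12 of 18 of ATP synthase. Expressed as the median distance from the mean of the 6 libraries in log2 CPM, the members stood at -0.04, -0.00 and -0.01 in KO replicates 1 to 3 and at 0.08, -0.01 and -0.01 in WT replicates 1 to 3. Complexes III, IV and V were lowest in KO replicate 1, at -0.07, -0.05 and -0.05. The member genes' share of all estimated counts was 0.832%, 0.864% and 0.854% in KO and 0.913%, 0.846% and 0.861% in WT. Apart from both first replicates, KO replicates 2 and 3 and WT replicates 2 and 3 lay between 0.846% and 0.864%. WT replicate 1 was also the library with the most B cell marker RNA of all 6 (91.4 CPM summed) and with the most neutrophil marker RNA of the 3 WT libraries (30.8 CPM summed), and the part of that RNA in the members' values was not tested.

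Most subunit genes have short transcripts, and short transcripts as a class were shifted in the same library. By the ratio of counts to TPM, which follows the length the authors' counting used, 62 of 78 tested members belong to the shortest 10% of genes tested. Among the 1215 genes of that class that are not members, 35.3% were highest in WT replicate 1, and their median distance was 0.05 in that library and -0.02 in KO replicate 1. WT replicate 1 was highest for 38 of 62 members inside the class (61.3%) and for 10 of 16 outside it (62.5%). Since 77 of 78 tested members were shorter than the median gene tested, this split does not set short members against long ones. The part of transcript length in the members' values was not tested.

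**Figure D4:**
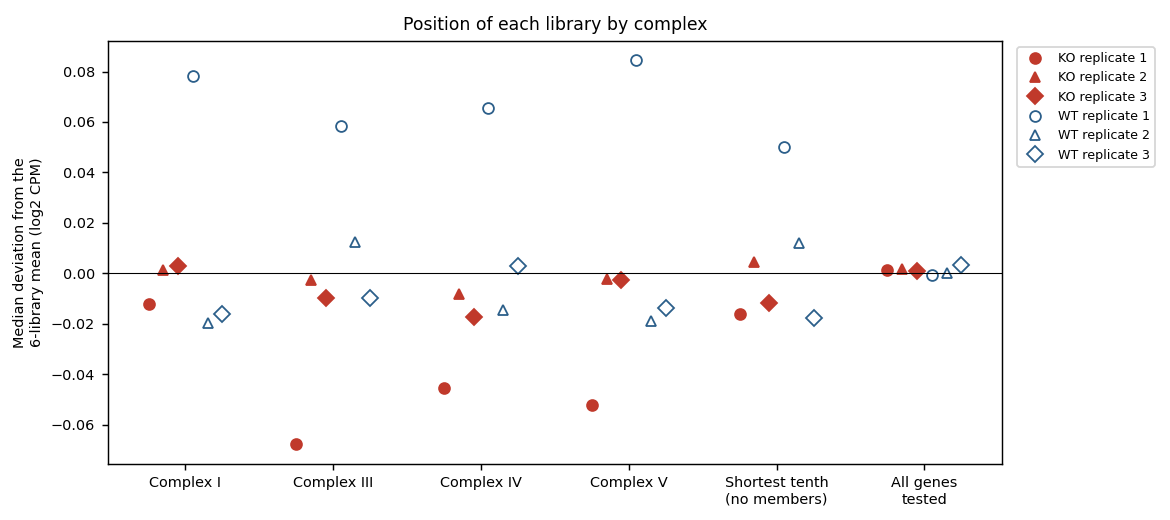
Median distance of each library from the mean of the 6 libraries, in log2 CPM, for the tested members of each complex, for the shortest 10% of genes without the members, and for all genes tested. Filled symbols are KO and open symbols WT, with a circle, triangle and diamond for replicates 1, 2 and 3; WT replicate 1 is highest in every complex (0.08 over all members) and KO replicate 1 lowest in complexes III, IV and V.

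Leaving out both first replicates put the median of the members at 0.01, with 49 above 0 and 29 below, and without KO replicate 1 alone it was -0.02, with 29 above and 49 below. In the fit without both first replicates 538 genes were called (4.21% of those tested), and 0 of 78 members were among them, with a lowest adjusted p of 0.0773 and 4 members at an unadjusted p under 0.05. This was the fit with the most calls of the 18 that were made, and the fit of all 6 libraries called 86 genes. The fit with 538 calls held only the 2 closest pairs: the biological coefficient of variation was 2.97% between KO replicates 2 and 3 and 7.12% between WT replicates 2 and 3, against 12.5% to 14.8% for the other pairs within a group. The part of that closeness in the count was not tested. With KO replicates 2 and 3 summed as 1 library, 8 genes and 0 members were called.

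Beyond the members, related lists held 1 gene that passed, a subunit gene of complex II. Complex II, succinate dehydrogenase with its assembly factors, is where succinate enters the chain. Its iron-sulphur subunit gene Sdhb had 74.8, 74.8 and 71.4 CPM in KO and 94.0, 92.2 and 93.2 CPM in WT. Every KO value lay below every WT value, and Sdhb fell, with a log2 fold change of -0.34 (SE 0.05, edgeR adjusted p = 0.0292). It was 1 of 8 tested genes of that list to pass, and the other 7 did not (list median 0.04). Its log2 fold change lay between -0.35 and -0.32 in all 17 alternatives, but 6 of them ended the call: without KO replicate 2 (0.0805), KO replicate 3 (0.155), WT replicate 2 (0.1005) or WT replicate 3 (0.116), with KO replicates 2 and 3 summed (0.111), and on unfiltered TPM (0.0859).

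Assembly factors did not pass in any list, where 0.674% of all genes tested were called. The counts were 0 of 17 for complex I (median -0.02), 0 of 6 for complex III (median 0.01), 0 of 22 for complex IV (median -0.04) and 0 of 5 for ATP synthase with its inhibitor (median -0.04). Lists this short cannot tell a count of 0 from that share. The lowest p of these 4 lists belonged to Tmem70, which helps to build the c ring, with 38.2, 46.9 and 44.5 CPM in KO and 30.5, 34.5 and 32.3 CPM in WT. KO lay above WT without overlap at a log2 fold change of 0.41 (SE 0.09, edgeR adjusted p = 0.1002). In the other 3 lists the lowest p belonged to Dmac2 for complex I (0.18, edgeR adjusted p = 0.233), Uqcc1 for complex III (0.19, edgeR adjusted p = 0.252) and Coa3 for complex IV (-0.16, edgeR adjusted p = 0.305). Neither the 15 tested regulators of respiratory genes (median 0.01, Sirt1 at 0.16) nor the 13 genes of coenzyme Q synthesis (median -0.05, Coq7 at -0.24) held a gene that passed.

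The 13 protein-coding genes of mitochondrial DNA, which supply the remaining subunits of the same complexes, had a median log2 fold change of 0.44. Of these, 0 of 13 passed, where 0.674% of all genes tested were called. Their summed level was 27417, 15213 and 17111 CPM in KO and 14161, 17010 and 14455 CPM in WT. KO replicate 1 was far above the others, and the other 5 libraries overlapped between the groups. mt-Nd3, a membrane subunit of complex I, had 165, 203 and 207 CPM in KO and 145, 162 and 157 CPM in WT, without overlap at 0.31 (SE 0.09, edgeR adjusted p = 0.198). KO replicate 1 is also the library with the most neutrophil and monocyte marker RNA. Whether that RNA bears on the mitochondrial transcripts was not tested.

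Nuclear respiratory factor 1 (NRF1) is a transcription factor long known to act on respiratory chain genes. Its core letters, GCGCA and GCGC with any 1 base between them, searched on both strands in the 250 bases before the RefSeq start, were found in 11 of 65 tested members with a promoter in the table, or 16.9%, against 9.24% of 9984 tested genes and 4.23% of all 27025 promoters. By complex the letters were present in 6 of 32 members of complex I, 0 of 6 of complex III, 1 of 12 of complex IV and 4 of 15 of ATP synthase. The ETS letters CCGGAAG were in 16.9% of members against 15.8% of tested genes, the estrogen-related receptor (ERR) letters AAGGTCA in 7.69% against 3.45%, the YY1 letters AAGATGGC in 1.54% against 2.39%, and the TATA letters TATAAA in 9.23% against 8.18%. No motif holds the letters of another, all were searched on both strands, and no test was made of these shares.

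Shown are 3 promoters that hold the NRF1 letters, 1 each from complexes I, IV and V, with the matches in capitals and read 5′ to 3′ along the gene (RefSeq, GRCm38.p6). They are those of Ndufa8 (chr2:36049339-36049588, minus strand), an accessory subunit of complex I, of Cox6a1 (chr5:115348959-115349208, minus strand), which holds 2 matches, and of Atp5g2 (chr15:102671048-102671297, minus strand). The log2 fold changes of these genes were 0.05, -0.11 and -0.02, and a match in the letters does not show binding.

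Ndufa8: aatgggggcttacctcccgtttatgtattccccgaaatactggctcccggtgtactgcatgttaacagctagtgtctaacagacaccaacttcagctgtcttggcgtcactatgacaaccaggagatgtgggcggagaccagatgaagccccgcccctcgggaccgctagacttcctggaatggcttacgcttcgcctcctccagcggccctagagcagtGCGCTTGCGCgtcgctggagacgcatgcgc

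Cox6a1: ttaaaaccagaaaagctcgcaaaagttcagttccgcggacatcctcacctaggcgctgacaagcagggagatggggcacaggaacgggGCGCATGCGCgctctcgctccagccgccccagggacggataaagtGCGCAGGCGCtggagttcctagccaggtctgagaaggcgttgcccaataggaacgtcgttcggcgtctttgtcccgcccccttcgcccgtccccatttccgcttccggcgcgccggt

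Atp5g2: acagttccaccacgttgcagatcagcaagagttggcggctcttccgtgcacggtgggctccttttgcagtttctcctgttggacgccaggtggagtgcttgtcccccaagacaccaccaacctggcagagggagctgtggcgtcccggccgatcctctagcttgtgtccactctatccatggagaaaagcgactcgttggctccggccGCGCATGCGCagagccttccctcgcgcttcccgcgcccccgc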

How the data were processed

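The submitters' processing notes name FastQC, a check of read quality, and HISAT2, an aligner; the counting program, strand setting, annotation and genome build are not stated in these sources. Estimated counts and TPM of every gene were deposited by the authors for each library, per the file headers. Counts were rounded to whole numbers, filtered with edgeR's filterByExpr (12768 of 21899 genes kept) and scaled by TMM (factors 0.988 to 1.01). KO and WT were compared with edgeR 4.0.16 in R 4.3.3 (quasi-likelihood F test, robust, two-sided), with no term but genotype and Benjamini-Hochberg adjustment over all genes at 0.05. CPM are TMM-scaled, fold changes are KO minus WT on the log2 scale, and intervals are 95% per gene.

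The members and lists were chosen with earlier results of these data known. Values in every library are given for members past the threshold, the 4 of lowest p and 2 of highest TPM in each complex, isoform sets and Cycs. Ndufs1 and members listed for a lack of overlap were named after their values were seen. The values of 1 tested member, which is in all counts, are not reported here. Of the lists, Coa1 and Atp5if1 were not matched. Positions come from GENCODE M21 (GRCm38), which need not be the authors' annotation. Of the 84 symbols, 67 had a promoter in the RefSeq table. Decimal counts occur in 26 members, and 28 overlap another listed gene in the annotation, 6 of them on the same strand, so reads of these may be shared. KO replicates 2 and 3 were far closer to each other than to KO replicate 1 (coefficient of variation 2.97%, against 14.3% and 12.5%), but differed by more than sampling noise (chi-square 3.56 per gene) and were kept apart. Libraries were not paired by replicate number in the main fit. Correlations of deviations between KO and WT were 0.18, 0.08 and 0.08 for equal numbers and from -0.15 to 0.11 for unequal numbers. These values do not settle whether the numbers pair the libraries. Alternatives used DESeq2 1.42.0 and limma 3.58.1. The test was tried on simulated data. Figures used Python 3.11.15 with pandas 2.3.3 and matplotlib 3.10.9.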

Additional observations from a re-analysis of the deposited data

How the results depend on the processing

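Under all 17 alternatives 0 members were called in either direction. The counts over all genes, 58 higher and 28 lower, moved more: 367 and 165 by the DESeq2 test, 311 and 227 with both first replicates left out, 6 and 2 with KO replicates 2 and 3 summed, 4 and 1 by limma on unfiltered TPM. Calls higher in KO were also 30 and 38 by limma on TPM with pseudocounts of 1 and 0.1, 92 with no filter on low counts and 33 with the stricter filter. Leaving out 1 library gave from 3 to 56 higher and from 1 to 40 lower. With the replicate block, 134 genes were called higher and 43 lower, still with 0 members. Whether the numbers pair the libraries was not settled.

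The median log2 fold change with both first replicates left out was 0.012 for all members, -0.0031 for complex III, 0.0058 for complex IV and 0.020 for ATP synthase. Over fits that left out 1 library it ran from -0.054 to 0.00090 for all members and from -0.074 to -0.014 for complex III, nearest 0 without WT replicate 1. Named members turned sign in 24 combinations of gene and setting and not in 501. With both first replicates left out, the log2 fold change was 0.027 for Atp5a1, 0.015 for Atp5g1, 0.030 for Atp5g2, 0.031 for Atp5g3, 0.027 for Cox5a and 0.030 for Cox6b1. Cox5a was at 0.0047 with the stricter filter, Cycs at -0.033 with KO replicates 2 and 3 summed, and Ndufa3 at -0.0019 in each TPM fit. Leaving out 1 library gave log2 fold changes of -0.074 to 4.5e-06 for Atp5a1, -0.041 to 0.020 for Atp5g2, -0.038 to 0.012 for Atp5g3, -0.051 to 0.033 for Cox5a, -0.064 to 0.019 for Cox6b1, -0.055 to 0.13 for Cycs and -0.051 to 0.058 for Ndufa3. Depth limits the tissue forms of complex IV, with at most 105 reads in a library.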
